A study of Mus musculus with 8 samples.

Results

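The nuclear-encoded genes of the mitochondrial respiratory chain were followed in basal cells of mouse back skin. The set held every gene whose symbol on the array starts with Nduf or Uqc, with Cox4 to Cox8 or with Atp5, together with Sdha, Sdhb, Sdhc, Sdhd and Cycs. Where several probe sets carried that symbol alone, the one brightest on average over the arrays stood for the gene, and the choice used no difference between groups. This gave 90 of the 17097 genes measured. By role they were 33 subunits of complex I, 7 complex I assembly factors (Ndufaf), the pair Ndufa4 and Ndufa4l2, 4 subunits of complex II, 7 of complex III, 2 complex III assembly factors (Uqcc), cytochrome c, 10 broadly expressed genes of complex IV, 7 complex IV isoforms known from particular tissues, and 17 subunits of complex V.

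The respiratory chain sits in the inner mitochondrial membrane. Complexes I and II take electrons from NADH and succinate, complex III passes them to cytochrome c, and complex IV hands them to oxygen. Complexes I, III and IV pump protons, and complex V, the ATP synthase, uses the proton gradient to make ATP. Most subunits are encoded in the nucleus and a few in the mitochondrial genome. No probe set named for a mitochondrially encoded subunit was found among 26 spellings searched, so that share of the chain was not analysed here. Basal keratinocytes divide, and their daughters leave the basal layer to differentiate.

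CD1 mice in 3 groups were compared, with 1 Affymetrix array per mouse. The arrays labelled CTRL came from 3 untreated mice, those labelled EXPD4 from 3 mice at day 4 of mechanical expansion of the skin, and those labelled TPA from 2 mice treated with the phorbol ester 12-O-tetradecanoylphorbol-13-acetate. No age, dose or treatment time was given for the mice in the sources used here. Each sample was 300 cells sorted as positive for ITGA6, an integrin of basal keratinocytes, and negative for CD34, a marker of hair follicle bulge cells, and the RNA was amplified before hybridisation. The values are log2 RMA signals, so a difference of 1 is a doubling. In such bulk samples fewer cells of a type and less RNA per cell cannot be told apart.

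The basal keratins matched the sort, at 13.28 ± 0.05 (SD, n = 3) for Krt5 and 13.30 ± 0.04 (SD, n = 3) for Krt14 in the arrays labelled CTRL, and neither was called in any comparison. Itga6, the gene of the sorting marker, averaged 12.27, 11.80 and 11.58 in the arrays labelled CTRL, EXPD4 and TPA and was called lower in the latter 2 than in the first. Cd34 lay under the background limit, defined below, on every array. Genes known to be induced by phorbol esters went against the labels. Odc1, ornithine decarboxylase, was 11.34 ± 0.02 (SD, n = 3) in arrays labelled CTRL, 9.84 ± 0.14 (SD, n = 3) in those labelled EXPD4 and 8.99 ± 0.09 (SD, n = 2) in those labelled TPA. Of 10 genes of phorbol ester treatment and wounding, 9 were lower and 1, Fosl1, was higher in the arrays labelled TPA than in those labelled CTRL. Group names are therefore given as labels throughout, and every direction below rests on them. Replicate 1 of the arrays labelled CTRL stood apart from the others of its group on endothelial markers, and counts without it are given below. It had Cdh5 at 9.73 against 7.02 and 6.86 and Emcn at 8.14 against 5.75 and 6.34. Over 5 endothelial markers the log2 of the summed signal was 8.95 to 10.88 in the arrays labelled CTRL. That sum also varied among the arrays labelled EXPD4, from 8.95 to 9.83, and was 8.72 to 8.79 in those labelled TPA. Arrays correlated at 0.990 to 0.995 within groups and at 0.961 to 0.965 between those labelled CTRL and TPA, over all genes.

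Most of the chain was well measured. Of the 90 genes, 86 lay above the background limit on all 8 arrays. That limit, set on each array, was the 95th percentile of the signals of 79 sensory receptor genes (symbols starting with Olfr, Vmn or Taar), which are taken to be silent in skin, and it lay at 6.37 to 6.55. Signals of different probe sets are not levels on a common scale, so each gene is read against the limit and against itself in other arrays. Mean signals ran from 9.06 for Ndufs8 to 12.07 for Ndufa5 in complex I and from 10.08 for Uqcrfs1 to 12.16 for Uqcrc2 in complex III. In complex II Sdhd had the lowest mean, 8.25, and Sdha the highest, with single arrays at 10.81 to 11.11. The means ran from 10.56 for Cox7c to 12.45 for Cox5b among the broadly expressed complex IV genes and from 10.19 for Atp5e to 12.24 for Atp5h in complex V. The assembly factors of complex I ran from 6.73 for Ndufaf1 to 9.54 for Ndufaf8.

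The tissue isoforms of complex IV were near the limit. Cox6a2, Cox7a1 and Cox8b belong to heart and skeletal muscle, Cox4i2 is known from lung and from low oxygen, and Cox6b2, Cox7b2 and Cox8c are known from testis. Their mean signals ran from 4.89 for Cox7b2 to 7.73 for Cox6a2. Cox7b2 was under the limit on all 8 arrays, and Cox4i2, Cox6a2, Cox8b and Cox8c were above it on all 8. None of the 7 was called in any comparison with limma, and at an unadjusted p under 0.05 the count was 0 between the arrays labelled EXPD4 and CTRL, 1 between those labelled TPA and CTRL, and 0 between those labelled EXPD4 and TPA. Of 9 skeletal muscle markers, 4 lay under the limit on all arrays.

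**Figure D1:**
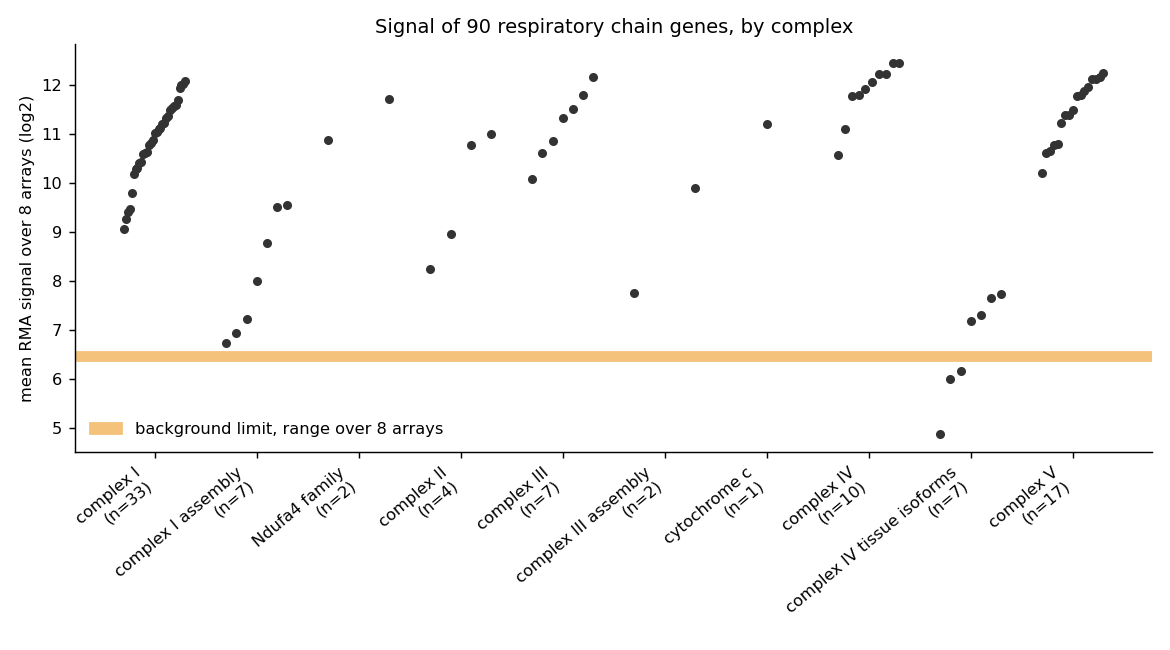
Mean log2 RMA signal over 8 arrays (vertical axis) of the 90 genes, 1 point per gene, grouped by complex with the number of genes in brackets. The shaded band is the background limit, 6.37 to 6.55. Of the 7 tissue isoforms of complex IV, 4 were above the limit on all 8 arrays.

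Promoters from RefSeq (GRCm38.p6, the 250 bases before and 50 after each start) were matched for 73 of the 90 genes. They were searched on both strands for the palindromic site of NRF1 (nuclear respiratory factor), for CCGGAAG, the core bound by ETS factors such as GABP, for AANATGGCG, a YY1 site, and for TCAAGGTCA, a site of the estrogen-related receptor ERR alpha. A promoter could hold several motifs, and 40 of the 73 held at least 1. NRF1 letters stood in 26.0% of the 73 and in 5.19% of the 27025 genes in the table, ETS letters in 23.3% and 9.93%, YY1 letters in 15.1% and 2.76%, and ERR alpha letters in 2.74% and 0.466%. Among 13 promoters of genes called in some comparison below, NRF1 letters stood in 4, ETS letters in 3, YY1 letters in 2 and ERR alpha letters in 0. Of the 4 tissue isoforms of complex IV with a promoter in the table, 0 held any of the motifs. A match describes letters only, not binding.

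The promoters below belong to genes that the comparisons turn on. They were picked, after their values were seen, to show each kind of match found in the called genes and 1 promoter without a match. They run 5′ to 3′ along the gene, with the motif letters in capitals. Ndufa6 (chr15:82354242-82354541, minus strand) holds the NRF1 letters on the opposite strand, near the start. Atp5h (chr11:115419870-115420169, minus strand) holds the NRF1 letters and, on the opposite strand, the ETS letters. Ndufb11 (chrX:20617570-20617869, minus strand) holds the YY1 letters, Ndufb7 (chr8:83566508-83566807, plus strand) holds the ETS letters, and Ndufa1 (chrX:37191189-37191488, minus strand) holds none of the motifs in this window.
Ndufa6: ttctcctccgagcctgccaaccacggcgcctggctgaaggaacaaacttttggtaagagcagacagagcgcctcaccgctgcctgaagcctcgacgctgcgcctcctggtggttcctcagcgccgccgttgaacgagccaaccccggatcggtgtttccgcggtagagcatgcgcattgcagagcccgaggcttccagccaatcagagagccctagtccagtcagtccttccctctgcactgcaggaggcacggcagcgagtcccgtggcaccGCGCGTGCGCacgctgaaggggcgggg
Atp5h: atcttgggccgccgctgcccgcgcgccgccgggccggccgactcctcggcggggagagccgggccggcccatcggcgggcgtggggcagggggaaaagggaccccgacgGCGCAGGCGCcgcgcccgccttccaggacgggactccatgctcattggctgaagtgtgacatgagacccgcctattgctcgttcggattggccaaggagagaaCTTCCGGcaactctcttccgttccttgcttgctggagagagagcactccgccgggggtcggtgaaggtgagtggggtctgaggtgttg
Ndufb11: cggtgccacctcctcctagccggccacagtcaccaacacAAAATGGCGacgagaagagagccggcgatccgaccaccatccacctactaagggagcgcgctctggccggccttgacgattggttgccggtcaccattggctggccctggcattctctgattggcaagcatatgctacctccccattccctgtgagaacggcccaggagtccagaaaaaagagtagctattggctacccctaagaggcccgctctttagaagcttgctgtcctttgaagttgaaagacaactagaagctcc
Ndufb7: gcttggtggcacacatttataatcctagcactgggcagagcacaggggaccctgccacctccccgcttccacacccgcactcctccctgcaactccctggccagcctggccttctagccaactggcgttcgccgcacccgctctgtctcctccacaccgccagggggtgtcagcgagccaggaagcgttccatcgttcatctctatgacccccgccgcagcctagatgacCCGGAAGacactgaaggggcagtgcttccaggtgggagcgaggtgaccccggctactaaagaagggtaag
Ndufa1: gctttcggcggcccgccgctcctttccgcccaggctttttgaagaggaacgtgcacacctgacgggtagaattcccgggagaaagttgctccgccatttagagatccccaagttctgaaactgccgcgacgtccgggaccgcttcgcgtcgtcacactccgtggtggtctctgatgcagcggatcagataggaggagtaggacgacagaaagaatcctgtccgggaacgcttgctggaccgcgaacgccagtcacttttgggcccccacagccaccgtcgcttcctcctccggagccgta

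Mechanical expansion makes skin grow, and the first comparison asks which respiratory chain transcripts differ at day 4. In the arrays labelled EXPD4, 8 of the 90 genes (8.89%) were called higher than in those labelled CTRL. They were Ndufa1, Ndufa6, Ndufb3, Ndufb4 and Ndufb11 of complex I, the assembly factor Ndufaf5, Cox7a2l of complex IV and Atp5l of complex V. None was called lower with limma, and at an unadjusted p under 0.05 the counts were 25 higher and 2 lower. Over all genes 11.5% were called, 5.69% higher and 5.78% lower. The share of respiratory chain genes called higher moved with the processing: it was 14 genes (15.6%, beside 6.05% of all genes) with quantile normalization, 15 (16.7%, beside 6.14%) with the mean of each gene's probe sets and 3 (3.33%, beside 4.69%) with the replicate number as a block. Among the 1880 genes with a mean signal above 10, 26.5% were called, 13% higher and 13.5% lower, against 6 of the 67 respiratory chain genes that bright (8.96%) called higher and 0 lower.

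The differences were small and mostly of one sign. Of the 90 genes, 75 (83.3%) had a difference above 0, beside 51.6% of all genes and 56.2% of those with a mean above 10. Their median difference was 0.12, beside 0.01 over all genes and 0.03 over the bright ones. In 48 genes (53.3%) all 3 arrays labelled EXPD4 lay above all 3 labelled CTRL, a pattern seen in 15.4% of all genes. The reverse order held in 5 (5.56%), beside 14.5% of all genes. Both orders were commoner among bright genes, with 652 and 499 of the 1880 with a mean above 10. For the 67 respiratory chain genes that bright the counts were 43 and 2. These counts are descriptions, since genes on the same arrays are not independent.

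Ndufa1, an accessory subunit of the membrane arm of complex I encoded on the X chromosome, was 11.44, 11.21 and 11.25 in the arrays labelled CTRL and 11.69, 11.79 and 11.82 in those labelled EXPD4. All arrays labelled EXPD4 stood above all those labelled CTRL. It rose 1.38-fold (log2 difference 0.47 ± 0.08, SE, adjusted p = 0.00684), and it was the only one of the 8 called in each of the 8 fits that left out 1 array. Its promoter is the one shown above without a match.

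Ndufb4, an accessory subunit of the membrane arm of complex I, was 10.24, 10.02 and 9.96 in arrays labelled CTRL. It was 10.39, 10.59 and 10.69 in those labelled EXPD4. It was 1.40-fold higher (0.49 ± 0.10, SE, adjusted p = 0.0169), with no overlap between the groups. Its probe set can also match related transcripts, and when such probe sets were left out another one stood for the gene, and the call was lost at an adjusted p of 0.067. Ndufb3, of the same arm, was 10.63, 10.53 and 10.71 against 10.88, 10.93 and 10.98, a difference of 0.31 ± 0.07 (SE, adjusted p = 0.027).

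Ndufa6, a small accessory subunit that binds the mitochondrial acyl carrier protein, was 9.17, 8.95 and 8.92 in the arrays labelled CTRL and 9.38, 9.42 and 9.41 in those labelled EXPD4. The difference was 0.39 ± 0.09 (SE, adjusted p = 0.0209), and the groups did not overlap. Ndufab1, that acyl carrier protein, differed by 0.17 ± 0.08 (SE, adjusted p = 0.225). Ndufb11, another X-linked accessory subunit, was 11.73, 11.74 and 11.83 against 11.97, 12.03 and 12.08, a difference of 0.26 ± 0.07 (SE, adjusted p = 0.0402). The groups did not overlap, yet its call was lost in each of the 8 fits without 1 array, where the adjusted p reached 0.134.

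The remaining complex I genes mostly leaned the same way without being called. Over the 33 subunits, 31 differences were above 0, the median was 0.14 with a range of -0.01 to 0.49, and 21 had no overlap between the groups. The 6 nuclear core subunits, which carry the flavin, the iron-sulfur clusters and the quinone site, were Ndufs1, Ndufs3, Ndufs7, Ndufs8, Ndufv1 and Ndufv2. Their differences ran from 0.08 to 0.16 with a median of 0.11, and none was called with limma, against 1 at an unadjusted p under 0.05. All 5 calls of the complex were therefore among its 27 accessory subunits, whose median was 0.15. The difference between these medians was not tested. Ndufs4, the accessory subunit whose loss causes a severe complex I deficiency, differed by -0.00 ± 0.08 (SE), and Ndufa9 by -0.01 ± 0.06 (SE). The probe set named Ndufs5-ps carries a pseudogene's symbol and cannot be told apart here from Ndufs5, a subunit of the complex; it differed by 0.27 ± 0.11 (SE, adjusted p = 0.19).

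Among the complex I assembly factors, Ndufaf5, which modifies the core subunit Ndufs7, was 7.82, 7.54 and 7.80 in arrays labelled CTRL and 8.10, 8.07 and 8.24 in those labelled EXPD4. It rose by 0.42 ± 0.09 (SE, adjusted p = 0.0205), and the groups did not overlap. The other 6 ranged from -0.28 ± 0.10 (SE) for Ndufaf1 to 0.23 ± 0.17 (SE) for Ndufaf2. Of 10 complex I assembly factors outside the set, such as Acad9 and Ecsit, 0 were called in any comparison with limma, and at an unadjusted p under 0.05 there were 1 between the arrays labelled EXPD4 and CTRL, 2 higher and 1 lower between those labelled TPA and CTRL, and 0 between those labelled EXPD4 and TPA.

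Complex II, the succinate dehydrogenase shared with the citric acid cycle, had no called gene in any comparison with limma, and at an unadjusted p under 0.05 only Sdhb passed, in the arrays labelled TPA against those labelled CTRL. Between the arrays labelled EXPD4 and CTRL its 4 genes differed by 0.02 ± 0.08 (SE) for the flavin subunit Sdha, 0.09 ± 0.07 (SE) for the iron-sulfur subunit Sdhb, -0.09 ± 0.13 (SE) for the membrane anchor Sdhc and 0.18 ± 0.08 (SE) for the anchor Sdhd. The groups overlapped for all 4. Of 4 complex II assembly factors, 1 (25%) was called higher in the arrays labelled EXPD4, beside 5.69% of all genes. It was Sdhaf1, which helps load iron-sulfur clusters into Sdhb, at 0.56 ± 0.14 (SE, adjusted p = 0.0334). In the arrays labelled TPA 1 (25%) was called lower, beside 10.6% of all genes. It was Sdhaf2, at -0.57 ± 0.14 (SE, adjusted p = 0.0189).

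Complex III had 0 of 7 genes called with limma and 3 higher at an unadjusted p under 0.05. In 6 of the 7 all arrays labelled EXPD4 lay above those labelled CTRL. The differences ran from -0.03 for Uqcrfs1, the Rieske iron-sulfur protein, to 0.23 ± 0.08 (SE, adjusted p = 0.121) for Uqcr10, a small subunit. Cyc1, cytochrome c1, is a subunit of this complex whose symbol the selection did not take, and it differed by 0.15 ± 0.07 (SE, adjusted p = 0.226). Cytochrome c itself, Cycs, differed by -0.01 ± 0.07 (SE).

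In complex IV each of the 10 broadly expressed genes had all 3 arrays labelled EXPD4 above all 3 labelled CTRL, with differences of 0.06 to 0.26 and a median of 0.13. Only Cox7a2l was called. Known as a factor that joins complexes III and IV into supercomplexes, it was 11.67, 11.68 and 11.82 in arrays labelled CTRL and 11.99, 11.96 and 12.00 in those labelled EXPD4. It rose by 0.26 ± 0.07 (SE, adjusted p = 0.0469), and its other 2 probe sets differed by 0.35 and 0.36 in a fit of all single-symbol probe sets. The call was kept in 1 of the 8 fits without 1 array, where the adjusted p reached 0.15, and was lost with only the groups compared and with the replicate block. Its relative Cox7a2 differed by 0.06 ± 0.06 (SE). Cox4i1, the broadly expressed counterpart of Cox4i2, differed by 0.17 ± 0.06 (SE, adjusted p = 0.136).

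In complex V 16 of 17 genes had a difference above 0, with a median of 0.11, and 9 had no overlap between the groups. Atp5l, subunit g of the membrane part, was 11.32, 11.09 and 11.19 in arrays labelled CTRL and 11.46, 11.53 and 11.50 in those labelled EXPD4, a rise of 0.29 ± 0.08 (SE, adjusted p = 0.0474). The call was kept in 1 of the 8 fits without 1 array, where the adjusted p reached 0.157. The 5 subunits of the F1 head, which hold the catalytic sites, ran from -0.03 to 0.14 with 0 called with limma and 0 at an unadjusted p under 0.05. A second, dimmer probe set of Atp5c1, 1 of the 5, was higher in a limma fit of all single-symbol probe sets. It differed by 0.64 ± 0.12 (SE, adjusted p = 0.00943), and by 0.66 ± 0.13 (SE, adjusted p = 0.00762) in the arrays labelled TPA. Atp5c1 was called higher in both groups with the mean of probe sets, and without probe sets that can match related transcripts. The genes of subunit c, the rotating ring, gave 0.22 ± 0.09 (SE) for Atp5g1, 0.26 ± 0.08 (SE, adjusted p = 0.0614) for Atp5g2 and 0.04 ± 0.07 (SE) for Atp5g3.

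The number of calls in this comparison changed when 1 array was left out. With 1 array left out, the count of higher genes was 5, 2 and 4 without replicate 1, 2 and 3 of those labelled CTRL, 2, 2 and 1 without those of EXPD4, and 6 without either labelled TPA, while 72 to 77 of the 90 differences stayed above 0. Of the 8 such fits, Ndufaf5 was called in 5, Ndufb4 in 4, and Ndufa6 and Ndufb3 in 3 each. Over all genes the share called higher, 5.69% in the fit reported, also fell with fewer arrays. It was 4.42%, 3.46% and 3.53% without replicate 1, 2 and 3 of those labelled CTRL. Without those of EXPD4 it was 4.02%, 3.63% and 3.85%. An effect of single arrays and the loss of a replicate cannot be told apart in these counts.

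**Figure D2:**
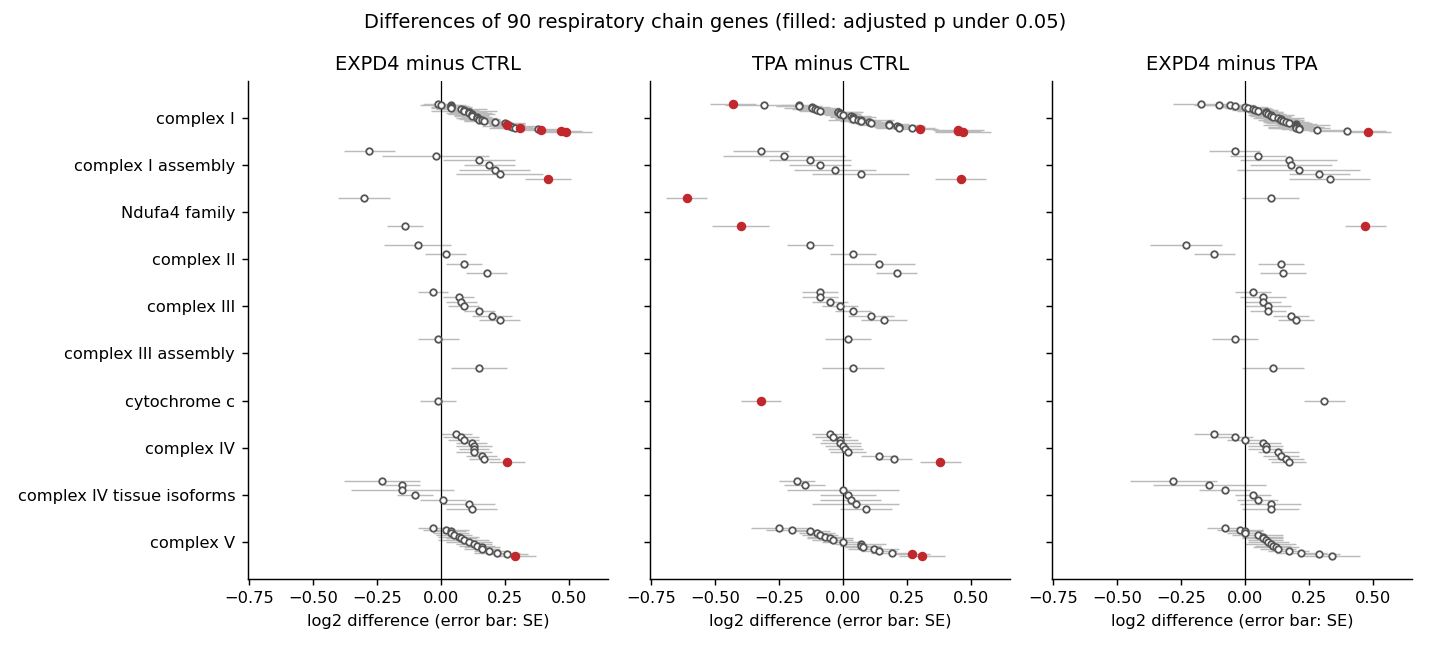
Log2 difference (horizontal axis, error bar SE) of each of the 90 genes by complex (vertical axis) in the 3 comparisons, with filled points for an adjusted p under 0.05. Between EXPD4 and CTRL 75 of the 90 points lie above 0, between TPA and CTRL 47, and between EXPD4 and TPA 73.

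Phorbol esters provoke hyperplasia of the epidermis, and the second comparison set the arrays labelled TPA against the same arrays labelled CTRL. Here 8 of the 90 genes were called higher (8.89%) and 4 lower (4.44%). The higher ones were Ndufa1, Ndufa6, Ndufa7 and Ndufb11 of complex I, Ndufaf5, Cox7a2l, and Atp5h and Atp5l of complex V. The lower ones were Ndufa4, Ndufa4l2, Ndufb7 and Cycs. Over all genes 20.8% were called, 10.2% higher and 10.6% lower, and among those with a mean above 10 the shares were 43.6%, 19.8% and 23.8%, beside 6 higher (8.96%) and 4 lower (5.97%) of the 67 bright respiratory chain genes. In this fit the shares of respiratory chain genes called in either direction lay below these values. For higher genes this order moved with the processing. The share was 13.3% beside 11.3% of all genes with quantile normalization and 11.1% beside 10.9% with the mean of probe sets. It was 10.0% beside 11.2% with centring of the arrays, 5.56% beside 8.6% with only the groups compared and 6.67% beside 8.04% with the replicate block. The median difference was 0.01, beside -0.03 over all genes, and 47 genes (52.2%) had a difference above 0, beside 44% of all genes. In 21 genes (23.3%) both arrays labelled TPA lay above all those labelled CTRL, beside 20.4% of all genes, and in 25 (27.8%) below, beside 25.4%. Among the 1880 genes with a mean above 10 these orders held in 674 and 746. For the 67 bright respiratory chain genes the counts were 19 and 19, smaller shares than among all bright genes.

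Ndufa4 showed the largest difference of the 90 genes in this comparison. Long listed with complex I and since assigned to complex IV, it was 11.96, 11.87 and 11.88 in the arrays labelled CTRL and 11.31 and 11.27 in those labelled TPA, with 11.68, 11.79 and 11.82 in those labelled EXPD4. The 3 groups did not overlap, and the arrays labelled EXPD4 lay between the others. It was lower in the arrays labelled TPA than in those labelled CTRL by a log2 difference of -0.61 ± 0.08 (SE, adjusted p = 0.00077), a ratio of 0.655, and the call held in each of the 8 fits without 1 array. Between the arrays labelled EXPD4 and CTRL it differed by -0.14 ± 0.07 (SE, adjusted p = 0.294).

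Ndufa4l2, a relative of Ndufa4 known as a target of the hypoxia-inducible factor HIF-1 that lowers complex I activity, was 11.10, 11.15 and 11.04 in arrays labelled CTRL, 10.64, 10.83 and 10.93 in those labelled EXPD4 and 10.57 and 10.82 in those labelled TPA. Both latter groups lay below the arrays labelled CTRL without overlap. The differences were -0.40 ± 0.11 (SE, adjusted p = 0.0343) for the arrays labelled TPA and -0.30 ± 0.10 (SE, adjusted p = 0.0968) for those labelled EXPD4. The first call was kept in 3 of the 8 fits without 1 array, where the difference ran from -0.53 to -0.27 and the adjusted p reached 0.221. Quantile normalization, centring of the arrays and the replicate block also ended it, at an adjusted p of up to 0.0593.

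Ndufb7, an accessory subunit on the outer face of the complex I membrane arm, was 10.61, 10.76 and 10.78 in arrays labelled CTRL, 10.71, 10.86 and 10.72 in those labelled EXPD4 and 10.29 and 10.27 in those labelled TPA. The arrays labelled TPA stood below all others, with a difference from those labelled CTRL of -0.43 ± 0.09 (SE, adjusted p = 0.00772). Its second probe set differed by -0.48 ± 0.09 (SE) in the same direction. Its promoter, shown above, holds the ETS letters.

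Cycs, which carries electrons from complex III to complex IV and triggers the apoptosome when released, was 11.34, 11.26 and 11.22 in arrays labelled CTRL and 10.98 and 10.93 in those labelled TPA. It was lower in the latter by -0.32 ± 0.08 (SE, adjusted p = 0.0194) with no overlap, and the call was lost without either array labelled TPA, at an adjusted p of up to 0.0917. In the arrays labelled EXPD4 it was 11.20, 11.31 and 11.29, within the range of those labelled CTRL or just below it.

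Of the called genes, 6 were called higher in both comparisons with the arrays labelled CTRL, which the comparisons share. In the arrays labelled TPA, Ndufa1 was 11.78 and 11.73, Ndufa6 was 9.54 and 9.39, and Ndufb11 was 12.07 and 12.05, with differences of 0.45 ± 0.09, 0.45 ± 0.10 and 0.30 ± 0.07 (SE). Ndufaf5 was 8.17 and 8.20, Cox7a2l 12.09 and 12.13, and Atp5l 11.46 and 11.57, with differences of 0.46 ± 0.10, 0.38 ± 0.08 and 0.31 ± 0.09 (SE). In each of the 6 the arrays labelled TPA lay above all arrays labelled CTRL. Between the arrays labelled EXPD4 and TPA their differences ran from -0.12 ± 0.08 (SE) for Cox7a2l to 0.01 ± 0.09 (SE) for Ndufa1.

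Ndufa7, an accessory subunit of complex I, was 9.94, 10.13 and 9.77 in arrays labelled CTRL, 10.24, 10.28 and 10.20 in those labelled EXPD4 and 10.46 and 10.36 in those labelled TPA. It was called for the arrays labelled TPA (0.47 ± 0.11, SE, adjusted p = 0.0153) and not for those labelled EXPD4 (0.29 ± 0.10, SE, adjusted p = 0.0934). Atp5h, subunit d of the peripheral stalk of complex V, was 12.11, 12.07 and 12.12 in arrays labelled CTRL and 12.38 and 12.36 in those labelled TPA, a difference of 0.27 ± 0.07 (SE, adjusted p = 0.0241). In the arrays labelled EXPD4 it was 12.34, 12.27 and 12.27, a difference of 0.19 ± 0.06 (SE, adjusted p = 0.0901). For both genes the arrays labelled CTRL were the lowest and those labelled TPA the highest, without overlap.

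By complex, the differences between the arrays labelled TPA and CTRL had medians of 0.04 in complex I, 0.09 in complex II, -0.01 in complex III, 0.00 in complex IV and -0.00 in complex V. In complex I they spread from -0.43 for Ndufb7 to 0.47 for Ndufa7, and in complex IV from -0.05 for Cox6c to 0.38 for Cox7a2l. In complex II, Sdhb differed by 0.21 ± 0.08 (SE, adjusted p = 0.116), Sdha by -0.13 ± 0.09 (SE), Sdhc by 0.14 ± 0.14 (SE) and Sdhd by 0.04 ± 0.09 (SE). Complex III had 0 genes called with limma and 0 at an unadjusted p under 0.05.

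With quantile normalization the calls in this comparison were 12 higher and 3 lower in place of 8 and 4. Without the first array labelled CTRL they were 7 higher (7.78%, beside 8.7% of all genes) and 3 lower. Ndufb11 and Ndufa4l2 then lost their calls. The count of higher genes fell to 2 without the first array labelled TPA, to 5 without the second and to 5 without the second array labelled CTRL, and the count of lower genes was 3 or 4 with any 1 array left out, though not always of the same genes. Without the first array labelled TPA, Cycs and Ndufa4l2 lost their calls and Cox7a1, above the limit on 1 of the 8 arrays, was called lower; without the second, Cox7a1 was among the 5 called higher. Ndufa1, Cox7a2l, Ndufa4 and Ndufb7 were called in all 8 fits, Ndufa6 and Ndufa7 in 7, Ndufaf5 in 6, Atp5h in 5, Ndufb11 in 4 and Atp5l in 1.

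**Figure D3:**
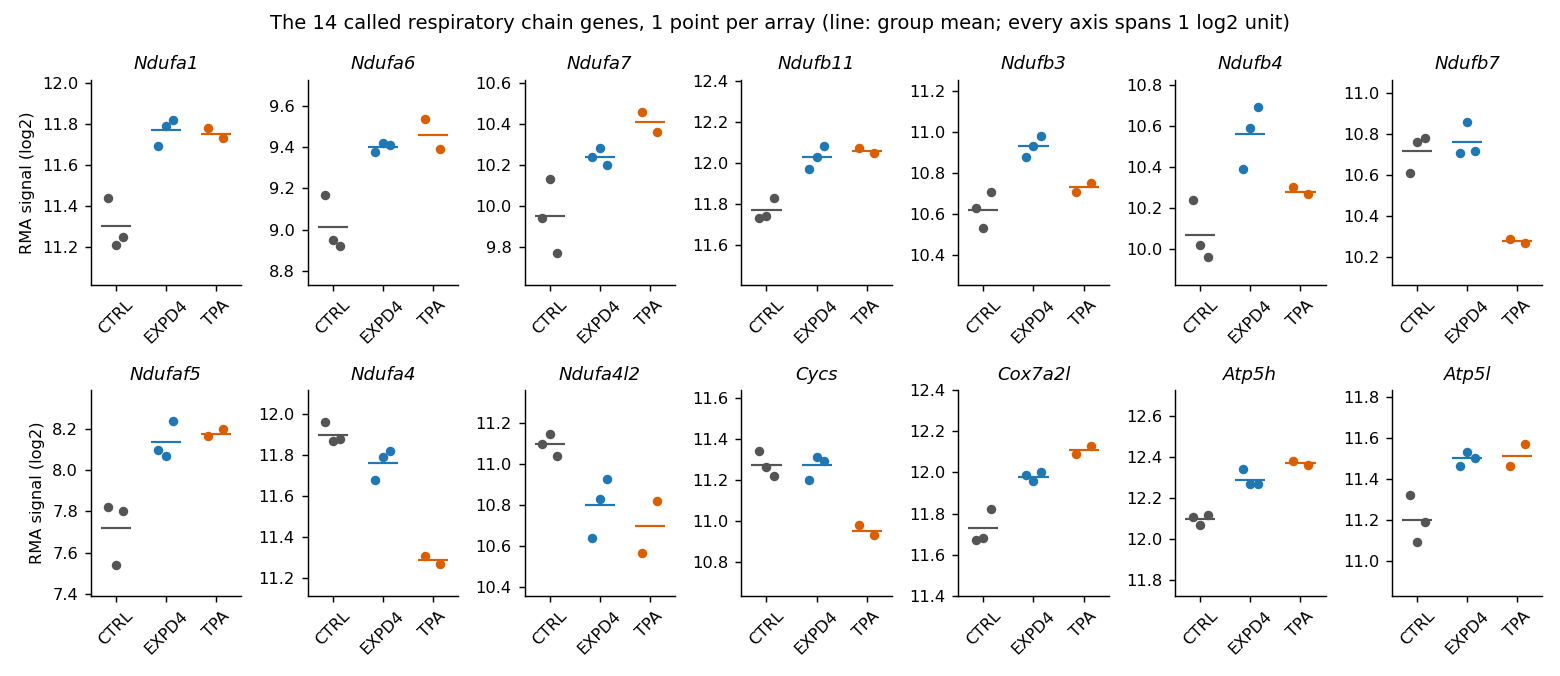
Log2 RMA signal (vertical axis, each spanning 1 unit) of the 14 genes called in at least 1 comparison, with 1 point per array and a line at each group's mean, for the arrays labelled CTRL, EXPD4 and TPA. Ndufa4 averaged 11.9, 11.76 and 11.29 in CTRL, EXPD4 and TPA, and Ndufa1 averaged 11.30, 11.77 and 11.75.

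The third comparison set the arrays labelled EXPD4 against those labelled TPA, without the arrays labelled CTRL. In the arrays labelled EXPD4, 2 genes were called higher (2.22%), Ndufa4 by 0.47 ± 0.08 (SE, adjusted p = 0.0111) and Ndufb7 by 0.48 ± 0.09 (SE, adjusted p = 0.0159). Over all genes 5.98% were called, 3.16% higher and 2.81% lower, and among the bright ones 12.8%, 7.87% and 4.95%, beside 2 higher (2.99%) and 0 lower of the 67. None of the 90 was called lower with limma, and at an unadjusted p under 0.05 the counts were 16 higher and 0 lower. Cycs, at 0.31 ± 0.08 (SE, adjusted p = 0.0525), was just outside the threshold. The assembly factor Ndufaf4, at 0.33 ± 0.16 (SE, adjusted p = 0.302), was not called. Its second, dimmer probe set differed by 0.79 ± 0.11 (SE, adjusted p = 0.00722) in a limma fit of all single-symbol probe sets. With the mean of probe sets Ndufaf4 was called higher. Small differences again shared a sign: 73 of 90 (81.1%) were above 0, beside 58.6% of all genes, with a median of 0.10 beside 0.03. In 42 genes (46.7%) the arrays labelled EXPD4 lay above both labelled TPA, beside 21.8% of all genes, and in 5 (5.56%) below, beside 13.9%. Among the 1880 genes with a mean above 10 these orders held in 680 and 425. For the 67 bright respiratory chain genes the counts were 38 and 4. In complex III all 7 differences were above 0, from 0.03 to 0.20. Without the first array labelled TPA 1 gene was called higher, and without the second 0 were, while Cox7a1 was then called lower.

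A summary by array shows the same small shift. For each gene its mean over the 8 arrays was subtracted, and the median over the 90 genes was taken in each array. It was -0.008, -0.055 and -0.044 in the arrays labelled CTRL, 0.052, 0.086 and 0.063 in those labelled EXPD4 and -0.028 and -0.039 in those labelled TPA. The arrays labelled EXPD4 stood above all others, and those labelled CTRL and TPA overlapped. Over all genes the medians ran from -0.031 to 0.028. In complex I the values were 0.065 to 0.116 in arrays labelled EXPD4 and -0.078 to -0.030 in the others, and in complex IV they were 0.054 to 0.069 and -0.067 to -0.020.

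**Figure D4:**
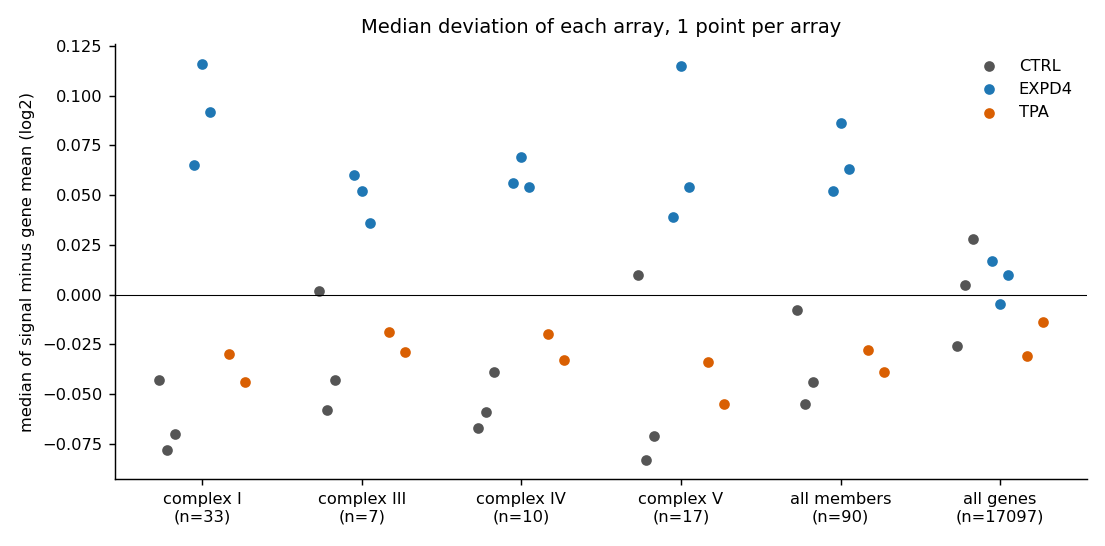
Median over genes of signal minus the gene's mean over 8 arrays (vertical axis, log2), 1 point per array, for complexes I, III, IV and V, for the 90 respiratory chain genes (shown as all members) and for all genes. Over the 90 genes the arrays labelled EXPD4 lie at 0.052 to 0.086 and the others at -0.055 to -0.008.

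Markers of other cells moved with these groups. Suprabasal keratinocyte markers were called higher for 3 of 5, Krt1, Krt10 and Krtdap, in the arrays labelled EXPD4 and in those labelled TPA, while Lor and Flg lay under the limit on all arrays. The log2 of their summed signal was 12.64 to 13.50 in arrays labelled CTRL, 14.23 to 14.33 in those labelled EXPD4 and 14.05 to 14.19 in those labelled TPA. For 5 bulge markers it was 10.04 to 10.39, 10.46 to 10.81 and 11.48 to 11.61. Of these Krt15 alone was called, higher in both groups, Cd34, Lhx2 and Lgr5 lay under the limit on all arrays, and Sox9 differed by -0.21 and 0.22 without a call. For 4 T cell markers the sum was 9.10 to 9.51, 10.24 to 10.32 and 10.30 to 10.46, with Thy1 called higher in both groups and the other 3, Cd3g and Cd3d among them, under the limit.

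In 4 other marker lists 1 or 2 genes were called in a comparison with the arrays labelled CTRL. For 6 macrophage and neutrophil markers the log2 sum was 10.79 to 10.98 in arrays labelled CTRL, 10.29 to 10.32 in those labelled EXPD4 and 8.66 to 9.17 in those labelled TPA. S100a8, the brightest of them, which keratinocytes also express, was lower in the arrays labelled TPA by -3.25, and Cd14 was lower in both groups, while Csf1r, Adgre1 and Itgam differed by -0.07, -0.15 and 0.17 in the arrays labelled TPA without a call. For 5 Langerhans cell markers it was 10.45 to 11.03, 9.67 to 9.96 and 10.12 to 10.29, with H2-Ab1 lower in both groups, Epcam lower in the arrays labelled EXPD4 and Cd207 under the limit. For 6 fibroblast markers it was 8.66 to 9.04, 8.82 to 8.95 and 9.32 to 9.53, with Dcn higher by 1.69 in the arrays labelled TPA and 3 markers under the limit. For 9 skeletal muscle markers it was 9.46 to 9.66, 9.52 to 9.59 and 9.40 to 9.50, with Mylpf lower in the arrays labelled TPA. The part of these cells in the differences of the respiratory chain genes was not tested.

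Other genes of the pathway were read from fixed lists, whose counts stand beside 5.69% of all genes called higher and 5.78% lower in the arrays labelled EXPD4, and 10.2% and 10.6% in those labelled TPA. The mitochondrial ribosome, which translates the subunits encoded in the mitochondrial genome, had 3 of 73 genes (4.11%) called higher and 1 (1.37%) lower in the arrays labelled EXPD4, with a median of 0.17. In those labelled TPA it had 4 (5.48%) higher and 3 (4.11%) lower, with a median of -0.06. These shares of called genes all lay below those over all genes. At an unadjusted p under 0.05 the limma counts were 15 higher and 1 lower of 73 in the arrays labelled EXPD4. In those labelled TPA they were 9 and 13. Between the arrays labelled EXPD4 and TPA they were 25 and 1, with 3 called higher, 0 lower and a median of 0.17. The medians of 0.17 stood beside 0.01 (against CTRL) and 0.03 (against TPA) over all genes. A small shift to higher signal in the arrays labelled EXPD4 was therefore not limited to the respiratory chain. Of 14 regulators of mitochondrial biogenesis, 1 (7.14%) was called higher in each comparison with the arrays labelled CTRL. It was Tfb2m, a factor of mitochondrial transcription, at 0.52 ± 0.11 (SE) in those labelled EXPD4 and 0.47 ± 0.12 (SE) in those labelled TPA. Nrf1, whose site was searched above, differed by -0.13 ± 0.10 and -0.16 ± 0.11 (SE) and was not called.

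Of 18 complex IV assembly factors, 2 (11.1%) were called higher and 0 lower in the arrays labelled EXPD4, Cmc1 at 0.73 ± 0.10 (SE, adjusted p = 0.00227) and Coa6 at 0.47 ± 0.08 (SE, adjusted p = 0.00639). In those labelled TPA 3 were higher and 3 lower (16.7% each), and Cmc1 was at 0.91 ± 0.11 (SE, adjusted p = 0.00061). Of 5 genes of complex III assembly and cytochrome c1, none was called for the arrays labelled EXPD4 with limma (1 higher and 1 lower at an unadjusted p under 0.05) and 2 were higher in those labelled TPA, the assembly factors Bcs1l at 0.38 ± 0.09 (SE) and Ttc19 at 0.32 ± 0.09 (SE). Of 5 genes of ATP synthase assembly and regulation, 1 was higher in the arrays labelled EXPD4, the assembly factor Fmc1 at 0.34 ± 0.08 (SE). Atpif1, the inhibitor of the ATP synthase, differed by 0.23 ± 0.07 (SE) in both groups and was not called.

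Upstream of the chain, 2 of 16 genes (12.5%) of the citric acid cycle and pyruvate dehydrogenase were called higher in the arrays labelled EXPD4, the isocitrate dehydrogenase subunits Idh3g at 0.34 ± 0.06 (SE) and Idh3b at 0.26 ± 0.07 (SE). In those labelled TPA 2 (12.5%) were higher and 3 (18.8%) lower, among them Dlat, of the pyruvate dehydrogenase complex, at -0.53 ± 0.09 (SE). Of 6 kinases and phosphatases of that complex, 2 (33.3%) were called higher in the arrays labelled EXPD4 and 1 (16.7%) in those labelled TPA. Pdk2, a kinase that inhibits the complex, was higher in both groups, by 0.68 ± 0.18 and 1.32 ± 0.20 (SE). Pdp2, a phosphatase, was called higher in the arrays labelled EXPD4, by 0.56 ± 0.11 (SE), and not in those labelled TPA. The kinases Pdk1 and Pdk3 differed by -0.34 ± 0.13 and -0.41 ± 0.19 (SE) in the arrays labelled TPA without a call. Of 10 mitochondrial carriers and porins, 1 (10%) was called lower in the arrays labelled EXPD4. In those labelled TPA 3 (30%) were called lower and 1 (10%) higher. The dicarboxylate carrier Slc25a10 was lower in both groups, by -0.38 ± 0.09 and -1.02 ± 0.10 (SE). In the arrays labelled TPA Slc25a13 and Vdac2 were lower, by -0.39 ± 0.10 and -0.25 ± 0.08 (SE), and Mpc1 was higher, by 0.33 ± 0.10 (SE).

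Hypoxia-inducible factor turns genes of glycolysis and oxygen sparing on when oxygen is low. Of 10 of its targets that bear on respiration, 6 (60%) were called lower in the arrays labelled EXPD4, with a median of -0.33, and 9 (90%) in those labelled TPA, with a median of -0.62, beside medians of 0.01 and -0.03 over all genes. Car9, a carbonic anhydrase, was lower by -1.76 ± 0.08 (SE) in those labelled EXPD4 and under the limit in both labelled TPA. Bnip3, a receptor for mitophagy, was 11.44, 11.69 and 11.48 in arrays labelled CTRL, 10.22, 10.32 and 10.57 in those labelled EXPD4 and 9.60 and 9.51 in those labelled TPA. The groups did not overlap, and the differences from the arrays labelled CTRL were -1.16 ± 0.11 and -1.97 ± 0.12 (SE). Ndufa4l2, also known as such a target, shared this direction, as given above.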

How the data were processed

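The authors deposited log2 signals. RMA is named, without a version, in the submitters' processing notes. The array medians were 7.08 to 7.14. The table held 45141 probe sets and 0 columns of other samples. Of these, 28898 carried 1 symbol in the platform's probe table and 551 several; the 90 genes had 156 probe sets, and 44 genes had more than 1. All 17097 genes were fitted over the 8 arrays by limma (version 3.58.1, run in R 4.3.3) with lmFit, each group having its own mean, and eBayes; the residual degrees of freedom were 5 and the prior ones 3.54. Every p was adjusted by Benjamini-Hochberg over all genes, and a gene was called at an adjusted p under 0.05. Replicates were separate mice, and the number of arrays limits the precision. Called genes with other probe sets had the same sign in all of them for 3 of 3, 6 of 6 and 1 of 1 genes in the 3 comparisons.

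Members and lists were chosen with earlier results of these data known. Genes were named if called and among the 4 smallest p of their complex and direction, with complex II, Cycs, isoform families, the highest and lowest signal of each complex, and the 5 smallest differences relative to their error; from the other lists, up to 3 genes with the smallest p in a comparison. Exceptions, named after their values were seen, are Ndufab1, Ndufs5-ps, Ndufs1, Ndufs3, Ndufs7, Ndufv2, Ndufaf2, Ndufaf4, Uqcr10, Cox6c, Atp5c1, Cyc1, Atpif1, Nrf1, Acad9, Ecsit, Fosl1, Lor, Flg, Lhx2, Lgr5, Sox9, Cd3g, Cd3d, Cdh5, Emcn, Csf1r, Adgre1 and Itgam. Alternatives were another scaling, a filter on dim genes, the mean of probe sets, only the groups compared, a replicate block, leaving out each array, and, chosen after seeing the data, no probe sets that can match several transcripts. Promoters are RefSeq's for GRCm38.p6; the build behind the array's annotation is not given in the sources used here, and no coordinates of it are printed.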

Additional observations from a re-analysis of the deposited data

How the results depend on the processing

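Calls near the threshold depended on the processing, and directions mostly did not. For genes higher in the arrays labelled EXPD4 than in those labelled CTRL, 8 in the fit reported, quantile normalization gave 14, the mean of probe sets 15 and the replicate block 3, and leaving out 1 array gave 1 to 6. For genes higher in the arrays labelled TPA, 8 as reported, only the groups compared gave 5 and leaving out 1 array gave 2 to 7; for genes lower there, 4 as reported, the replicate block gave 2. Between the arrays labelled EXPD4 and TPA, 2 higher as reported, the replicate block gave 0 and leaving out 1 array gave 0 to 3, with 0 to 1 lower. The cause was not tested. The log2 difference of Cox7a1, TPA minus CTRL, was -0.00 as reported, 0.46 (adjusted p = 0.0351) without the second array labelled TPA and -0.47 (adjusted p = 0.0358) without the first. Over all genes, the call counts with only the groups compared were 511 in place of 1022 between the arrays labelled EXPD4 and TPA, and 541 with the replicate block. Same-numbered arrays did not deviate together (correlation of residuals -0.179, 0.002 and 0.030 between the arrays labelled CTRL and EXPD4), so the numbers were not taken as pairs. Without either array labelled TPA, the fit assumes that the remaining one varies like the other groups. RMA signals compress at the bright end, which limits differences of genes near the top of the scale.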
